A study of Mus musculus with 6 samples.

Results

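Genes that are expressed mainly from the copy inherited from 1 parent, the imprinted genes, were followed through the posterior eye of mouse embryos with and without Oa1. The 36 genes were given as a named list, drawn up with results of the same arrays in view and headed by Nnat and Peg3, and every probe set annotated with a member's symbol was taken. That gave 92 of the 45101 probe sets on the Affymetrix array. They cover 34 of the 36 genes. No probe set carried the symbol Dio3 or Zrsr1. Of the 92, 84 were annotated to a member alone and covered 33 genes, and 8 were shared with a neighbour: 6 by Snurf and Snrpn, 1 by Mir675 and H19, and 1 by Airn and Igf2r. After a filter on dim probe sets, 70 of the 92 were tested, 64 of them annotated to 1 of 26 members and 6 shared. The other 22 are given by their signals.

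The arrays compared 3 wild-type (WT) and 3 Oa1-/- samples at embryonic day 15.5. The Oa1 gene, called Gpr143 in current annotation, makes a melanosomal receptor that signals through G proteins. Each sample pooled the eyes of 6 embryos from 1 pregnant female of that genotype, with the anterior segments removed, so a replicate is a litter pool and a value is an average over many cell types. The labels state neither strain nor embryo sex nor which part of Oa1 was removed. In such a bulk sample, fewer cells of a type and less RNA per cell cannot be told apart.

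Imprinting is set in the germ line, where DNA methylation marks a control region on the egg's or the sperm's chromosome, and the mark survives the erasure of methylation in the early embryo. The control region then decides, for a whole cluster of neighbours, which parental copy is transcribed. Many paternally expressed genes promote fetal growth and many maternally expressed ones restrain it, and several, among them Nnat, Peg3, Ndn and Snrpn, are strongly expressed in developing neurons. The arrays measure the sum over both parental copies and cannot show which copy was transcribed. Below, "paternal" and "maternal" name the copy known from earlier work to be active.

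Array-wide facts that touch the members are few. Gpr143 read 250, 257 and 246 on the WT arrays and 28.3, 39.1 and 6.02 on the Oa1-/- arrays, and its signal was low on each array labelled Oa1-/-. The median signal was lowest on Oa1-/- replicate 1, at 93.6, and lay between 108 and 129 on the other arrays. The 3' control for 18S ribosomal RNA read 1476 to 1988 in WT and 2608 to 6348 in Oa1-/-, highest on Oa1-/- replicate 1. Its 5' control read 2227 to 4049 in WT and 4828 to 11826 in Oa1-/-. The middle control overlapped, at 1371 to 2397 in WT and 1968 to 6576 in Oa1-/-. Y-linked Eif2s3y read 9.26 on WT replicate 3 and 406 or more on the other 5 arrays. Y-linked Kdm5d and Uty read 13.5 and 14.4 on WT replicate 3, also below the bacterial controls, and were higher on every other array. Xist, made from the inactive X chromosome, was highest on WT replicate 3, at 14194. The part of embryo sex in the members' signals was not tested. The highest bacterial control, a measure of background, read between 22.1 and 39.3.

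The promoters of the members on which the results turn are shown because imprinting acts through methylation of CG dinucleotides. Each line gives the 250 bases before the RefSeq start of the gene (build GRCm38.p6), 5′ to 3′ on the gene's strand, with every CG in capitals. The Nnat window lies at chr2:157559828-157560077 on the plus strand, that of Peg3 at chr7:6730420-6730669 on the minus strand and that of Ndn at chr7:62348027-62348276 on the plus strand.
Nnat: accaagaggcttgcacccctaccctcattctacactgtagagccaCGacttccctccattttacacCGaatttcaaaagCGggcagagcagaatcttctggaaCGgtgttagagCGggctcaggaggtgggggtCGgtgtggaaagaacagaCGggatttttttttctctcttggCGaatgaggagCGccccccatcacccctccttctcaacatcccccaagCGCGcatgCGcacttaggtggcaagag
Peg3: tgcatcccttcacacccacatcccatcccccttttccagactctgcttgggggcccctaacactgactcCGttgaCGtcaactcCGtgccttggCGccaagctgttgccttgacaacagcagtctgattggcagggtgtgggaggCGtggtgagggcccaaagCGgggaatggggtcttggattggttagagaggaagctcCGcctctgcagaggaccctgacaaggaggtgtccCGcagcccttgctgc
Ndn: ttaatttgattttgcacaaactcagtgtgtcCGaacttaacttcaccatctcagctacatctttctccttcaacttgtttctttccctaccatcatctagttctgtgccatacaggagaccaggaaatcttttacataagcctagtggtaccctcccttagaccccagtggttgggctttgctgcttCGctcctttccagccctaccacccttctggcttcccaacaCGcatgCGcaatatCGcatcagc
These windows hold 12, 8 and 5 CG dinucleotides, for Nnat, Peg3 and Ndn in that order. The median over the 45 windows of members was 8, and that over all 32851 windows in the table was 6. The letters TGCCGC, the motif that the imprint-protecting zinc finger protein ZFP57 binds when methylated, were searched on both strands, so also as GCGGCA. They occurred in 0 of the 3 windows shown. Of the 30 members with a window in the table, 6 held the motif (Calcr, Meg3, Mest, Nap1l5, Plagl1 and Zim1), or 20.0%, and of all genes with a window 9.84% did. A match describes these letters only. Methylation was not measured on the arrays.

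Across the members, the tested probe sets were spread to both sides of zero. In limma, 0 of the 70 had an adjusted p below 0.05, as had 0 of all 27029 tested (0.0%). Gpr143 itself, with a log2 change of −2.82 (SE 0.33), had an adjusted p of 0.287 in that fit. A count of 0 at this level is therefore no sign that signals were unchanged. At an unadjusted p below 0.05 there were 7 of 70, of which 6 were higher and 1 was lower in Oa1-/-. Over all probe sets 4.11% passed that level, 1.66% upward and 2.45% downward. All Oa1-/- arrays lay above all WT arrays in 7 of the 70 and below them in 1, so that 8 were without overlap. Over all probe sets this held for 10.2%, with 4.95% above and 5.3% below. Since the list was drawn up with this contrast known, these counts are a description and nothing is read from them.

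The probe sets behind those counts belong to few genes. The 7 past the unadjusted level were single probe sets of Nnat, Peg3 and Ndn and 4 shared by Snurf and Snrpn, and Inpp5f was the eighth whose groups did not overlap. The median log2 change of the 70 was −0.03, with 30 above 0 and 40 below. Of all tested probe sets, 47.5% were above 0. With the brightest unshared probe set of each gene, which leaves out H19 and the shared probe sets of Snrpn, 14 of 26 members were above 0 and 12 below, with a median of 0.01. Over 12901 genes treated alike the median was 0.0027, and 50.9% were above 0. Without Nnat and Peg3 the median of the remaining 24 members was 0.01, and the groups did not overlap for 1 of them, Inpp5f.

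**Figure D1:**
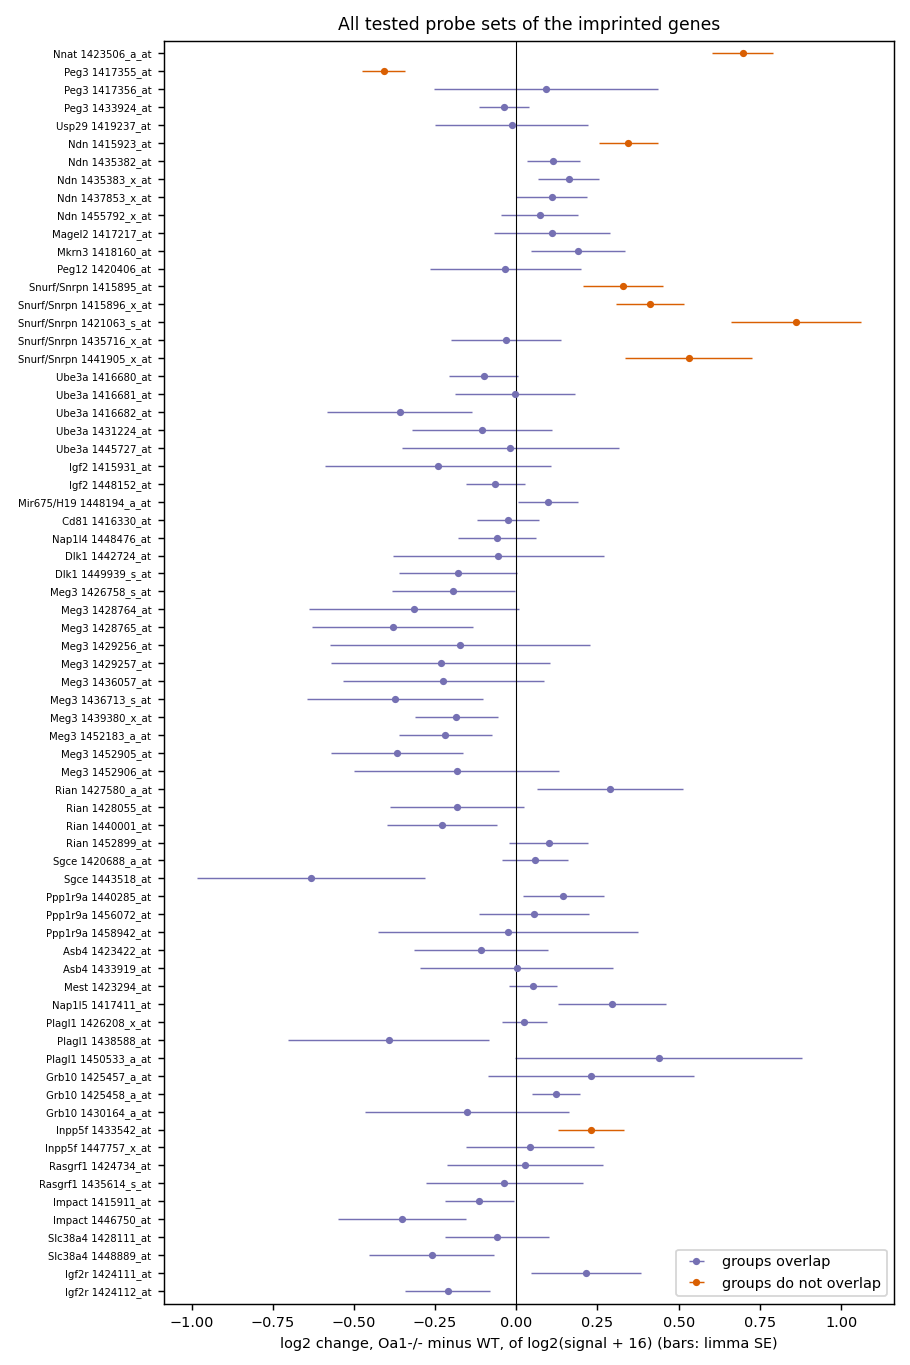
Log2 change (Oa1-/- minus WT, of log2(signal + 16)) of the 70 tested probe sets of imprinted genes, ordered by locus; bars are the standard error from limma, and orange marks the 8 probe sets whose groups do not overlap. Points lie on both sides of zero, from −0.63 for an Sgce probe set to 0.86 for one shared by Snurf and Snrpn, and 11 of 11 Meg3 probe sets lie below zero.

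Nnat encodes neuronatin, a small membrane proteolipid of developing neurons and endocrine cells, and is transcribed from the paternal copy within an intron of Blcap on chromosome 2. Its probe set 1423506_a_at read 2746, 3339 and 2771 on WT replicates 1, 2 and 3 and 4912, 4794 and 4622 on the Oa1-/- replicates in the same order, which is used throughout. Each Oa1-/- array was above each WT array, and the Oa1-/- values lay closer together. The group values were 2952 ± 336 and 4776 ± 146 (SD, n = 3), and the Oa1-/- mean was 162% of the WT mean. The log2 change was 0.70 (SE 0.09), and it stayed between 0.60 and 0.79 in the alternative fits. Blcap, named here as the host gene, gave 1432, 1606 and 1943 in WT, against 1477, 1640 and 1465 in Oa1-/-, with overlapping groups and a log2 change of −0.11 (SE 0.12).

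Neuron markers were also higher in Oa1-/- as a sum. The summed signal of 11 measured genes of ganglion cells and young neurons was 49289 to 52091 in WT and 53790 to 59374 in Oa1-/-, without overlap. Of these 11 genes 9 had a positive log2 change, 3 had groups that did not overlap (Isl1, Stmn2 and Gap43), and 0 of them was at or near background. Over all tested probe sets 10.2% were without overlap, and 50.9% of all genes tested were above 0. Among other marker lists, 9 of 9 tested lens genes, 12 of 15 of skeletal muscle and 2 of 15 of periocular mesenchyme were positive. Stmn2, a microtubule regulator of growing axons, measured 6160, 7695 and 6646 in WT, against 8893, 8293 and 8144 in Oa1-/-, a log2 change of 0.31 (SE 0.09). The 3' and 5' controls for 18S ribosomal RNA separated the genotypes as well and the middle control did not, with the values given above. The part of either in the signal of Nnat was not tested.

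Peg3, on chromosome 7, encodes a large zinc finger protein known for its effects on fetal growth and maternal behaviour, and its probe sets did not move together. Probe set 1417355_at gave 4178, 4131 and 4154 in WT, against 3145, 3098 and 3136 in Oa1-/-. Each Oa1-/- array was below each WT array, with group values of 4154 ± 23.6 and 3127 ± 25.0 (SD, n = 3) and a log2 change of −0.41 (SE 0.07). The spread within the groups was very small: pooled over both, the SD on the log2 scale was 0.010, and only 2 of the 27029 tested probe sets had a smaller one, where the median was 0.182.

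The other Peg3 probe sets gave another picture. The brightest, 1433924_at, measured 8928, 9449 and 8392 in WT, against 8343, 8497 and 9236 in Oa1-/-, with overlapping groups and a log2 change of −0.04 (SE 0.08). Probe set 1417356_at gave 909, 918 and 341 in WT, against 584, 815 and 733 in Oa1-/-, low on WT replicate 3, with a log2 change of 0.09 (SE 0.34). The last, 1447731_at and 1447732_x_at, read 9.11 or less on all 6 arrays, below the background controls. The lower signal in Oa1-/- was therefore a property of 1 of 3 tested probe sets. The files do not state which exons each probe set covers.

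The neighbours of Peg3 were dim. Usp29, which encodes a ubiquitin-specific protease and is transcribed in the opposite direction, starts 163 bases from Peg3 in RefSeq, so that the tabled windows around their starts (250 bases before to 50 after) share 263 bases. Its tested probe set 1419237_at measured 57.1, 85.0 and 61.8 in WT, against 59.5, 59.8 and 81.3 in Oa1-/-, with overlapping groups and a log2 change of −0.01 (SE 0.24). The second, 1427551_at, was too dim for the test and gave 14.0, 43.2 and 67.1 in WT, against 75.7, 86.3 and 91.5 in Oa1-/-, without overlap, with WT replicate 1 under the background controls. Zim1, a maternally expressed zinc finger gene, measured 66.1, 42.2 and 29.0 in WT, against 32.8, 41.6 and 67.6 in Oa1-/-, near the background on several arrays and not tested. Neither Usp29 nor Zim1 had a probe set that was lower in Oa1-/- without overlap. Zim3, a zinc finger gene of the same domain that is no member and was also too dim for the test, measured 56.7, 60.0 and 87.6 in WT, against 14.8, 48.9 and 47.8 in Oa1-/-, lower without overlap.

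In the cluster on chromosome 7 whose paternal deletion causes Prader-Willi syndrome in people, Ndn, Magel2, Mkrn3, Peg12 and Snrpn are paternally expressed. Ndn encodes necdin, a MAGE-family protein abundant in postmitotic neurons, and had 8 probe sets, 5 of them tested and all 5 with a positive log2 change, from 0.07 to 0.35. Probe set 1415923_at gave 7050, 7863 and 7229 in WT, against 10397, 8580 and 9219 in Oa1-/-. Each Oa1-/- array was above each WT array, and Oa1-/- replicate 1 was the highest. The group values were 7381 ± 428 and 9398 ± 922 (SD, n = 3), a log2 change of 0.35 (SE 0.09), which ran from 0.21 with array weights to 0.41.

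The other Ndn probe sets overlapped between the groups. The brightest, 1455792_x_at, measured 8397, 8298 and 10498 in WT, against 10792, 8759 and 8992 in Oa1-/-, a log2 change of 0.07 (SE 0.12). WT replicate 3 and Oa1-/- replicate 1 stood above the other 4 arrays, and without Oa1-/- replicate 1 the change was −0.02. Probe sets 1435382_at, 1435383_x_at and 1437853_x_at had log2 changes of 0.11, 0.16 and 0.11, each with its lowest value on WT replicate 1. The remaining 3 Ndn probe sets had group means between 5.39 and 32.2, at or near background, and were not tested.

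Snrpn, which encodes a core protein of spliceosomal ribonucleoproteins in neurons, is read from the same transcript as the short protein Snurf, and 6 probe sets carry both symbols. Probe set 1415895_at gave 2236, 2848 and 2853 in WT, against 3673, 3368 and 2927 in Oa1-/-, a log2 change of 0.33 (SE 0.12). For 1415896_x_at the values were 1849, 2283 and 2092 in WT, against 3035, 2667 and 2582 in Oa1-/-, a change of 0.41 (SE 0.10). For 1421063_s_at they were 689, 916 and 493 in WT, against 1389, 1194 and 1161 in Oa1-/-, a change of 0.86 (SE 0.20). In these, all Oa1-/- arrays lay above all WT arrays, Oa1-/- replicate 1 being the highest each time. The dimmer 1441905_x_at, at 127, 169 and 141 in WT, against 259, 221 and 176 in Oa1-/-, showed the same order with a change of 0.53 (SE 0.20).

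The remaining probe sets of Snurf and Snrpn did not separate the groups. Probe set 1435716_x_at measured 2014, 1660 and 2371 in WT, against 2337, 2017 and 1574 in Oa1-/-, a log2 change of −0.03 (SE 0.17). The sixth was at background, with 13.3 as its highest value. The only probe set annotated to Snrpn alone, 1432096_at, gave 58.1, 80.8 and 44.1 in WT, against 65.3, 42.5 and 85.0 in Oa1-/-, overlapped and was not tested. The 4 separated probe sets kept positive changes in the alternative fits, with 1421063_s_at between 0.56 and 1.07. Probe sets of 1 transcript are repeated readings of the same samples and not independent observations.

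**Figure D2:**
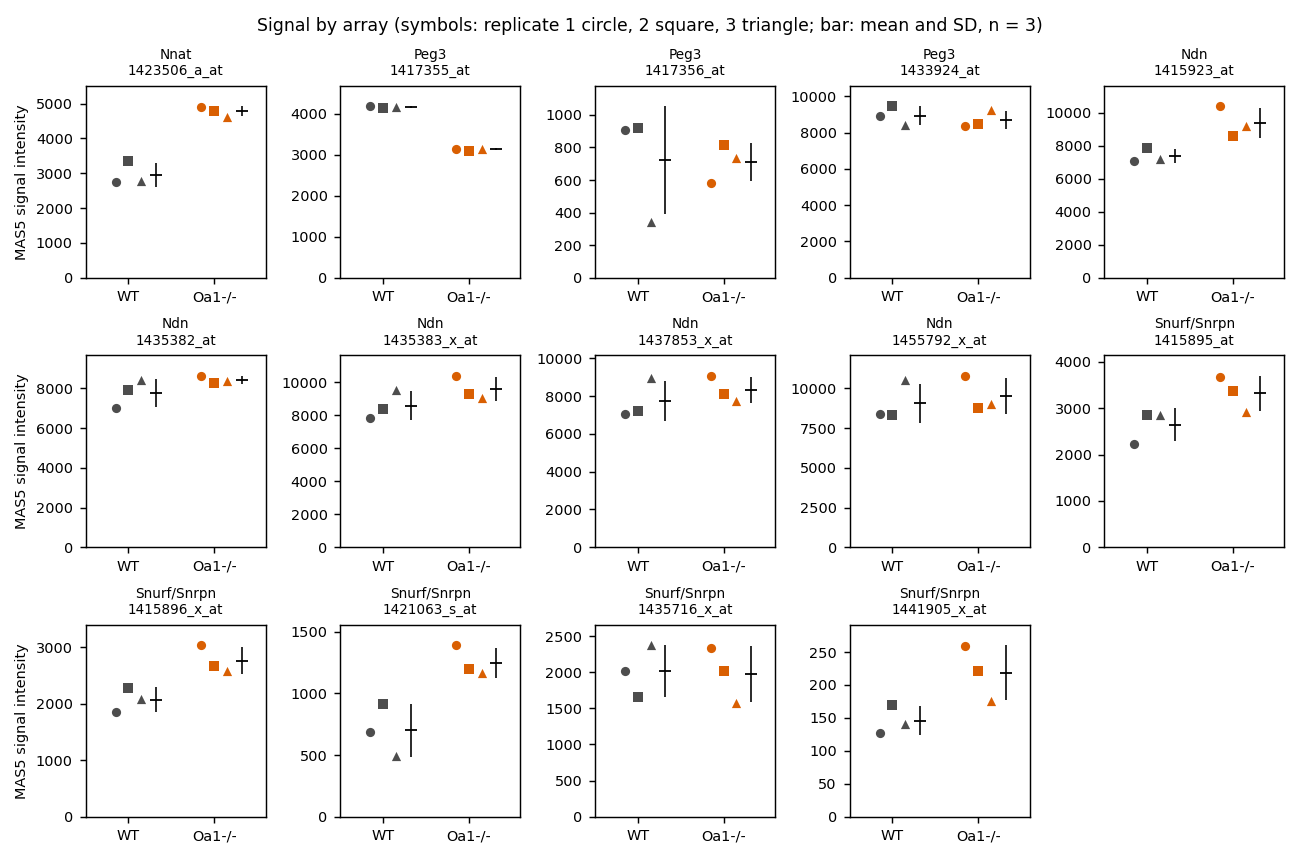
MAS5 signal on each array (linear axis from 0; circle, square and triangle for replicates 1, 2 and 3) for the tested probe sets of Nnat, Peg3, Ndn and Snurf/Snrpn, with bars for the mean and SD of 3 arrays. Groups stand apart for Nnat, 1 of 3 Peg3 probe sets, 1 of 5 Ndn probe sets and 4 of 5 shared by Snurf and Snrpn, and they overlap in the others.

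The smaller genes of the cluster overlapped between genotypes. Magel2, a MAGE protein that works with ubiquitin ligases, measured 304, 262 and 292 in WT, against 240, 335 and 367 in Oa1-/-, a log2 change of 0.11 (SE 0.18). Mkrn3, a RING finger gene known as a brake on puberty, gave 346, 288 and 267 in WT, against 360, 350 and 320 in Oa1-/-, with a change of 0.19 (SE 0.14). All 3 Oa1-/- arrays of Mkrn3 were above 2 of the WT arrays, while WT replicate 1 lay among them. Peg12, a relative of the Frat activators of Wnt signalling, measured 235, 146 and 250 in WT, against 192, 171 and 244 in Oa1-/-, with a change of −0.03 (SE 0.23).

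Ube3a, the Angelman syndrome ubiquitin ligase, is the maternally expressed gene of the cluster, with imprinting largely limited to neurons. Its brightest probe set 1416680_at gave 2224, 2020 and 2285 in WT, against 2110, 1763 and 2238 in Oa1-/-, with overlapping groups and a log2 change of −0.10 (SE 0.11). All 5 tested probe sets had a negative change, from −0.36 to −0.0041, and the groups overlapped in each. With quantile normalization, median centring, array weights or WT replicate 2 left out, 2 of the 5 turned positive. The shared sign thus depended on the processing and on the arrays used. A sixth, not tested, averaged 45.6 in WT and 58.2 in Oa1-/-.

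Igf2 and H19 are neighbours that share enhancers: Igf2, the paternally expressed fetal growth factor, and H19, a maternally expressed noncoding RNA that hosts Mir675. Igf2 probe set 1448152_at measured 10821, 12247 and 12660 in WT, against 12327, 10444 and 11396 in Oa1-/-, a log2 change of −0.06 (SE 0.09). The dim 1415931_at ran from 69.6 to 88.3 in WT and from 31.2 to 110 in Oa1-/-. The probe set of H19, shared with Mir675, gave 14717, 16851 and 18395 in WT, against 17661, 17047 and 18556 in Oa1-/-, a change of 0.10 (SE 0.09). For both genes the groups overlapped, with the lowest H19 signal on WT replicate 1.

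Farther along the same chromosome lies the Kcnq1 domain, whose listed members are expressed from the maternal copy, several of them mainly in placenta. Cd81, a tetraspanin of the cell surface, measured 5779, 5782 and 6430 in WT, against 6682, 5567 and 5471 in Oa1-/-, a log2 change of −0.03 (SE 0.10). Nap1l4, a histone chaperone, gave 5356, 6320 and 6492 in WT, against 6396, 6169 and 4911 in Oa1-/-, a change of −0.06 (SE 0.12). Both overlapped between genotypes. The placental growth regulator Phlda2 ran from 52.9 to 76.4, the potassium channel gene Kcnq1 from 17.4 to 93.0 and the transporter gene Slc22a18 on its brighter probe set from 23.3 to 53.5 over the 6 arrays, and none of these 3 was bright enough for the test.

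In the Dlk1 and Dio3 domain of chromosome 12, Meg3, a long noncoding RNA expressed from the maternal copy, had more probe sets than any other member. All 11 were tested and had a lower mean log2 signal in Oa1-/-, from −0.38 to −0.17 with a median of −0.22, but the groups overlapped in all 11. The brightest, 1439380_x_at, measured 11686, 14272 and 13924 in WT, against 9745, 12146 and 13368 in Oa1-/-, a log2 change of −0.18 (SE 0.13). Another bright one, 1452905_at, gave 8637, 10710 and 11193 in WT, against 5579, 8510 and 10125 in Oa1-/-, a change of −0.37 (SE 0.20).

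The number of Meg3 probe sets with a negative sign changed when 1 array was left out. Oa1-/- replicate 1 held the lowest value of all 6 arrays in 11 of 11 Meg3 probe sets. That array was the lowest in 27.6% of all tested probe sets and in 26 of the 70 of imprinted genes, these 11 included. Without it, 6 of the 11 were above and 5 below a log2 change of 0, with a median of 0.01, and with array weights 3 were above 0 and 8 below. The brightest, 1439380_x_at, kept a negative change without that array (−0.06) and lay between −0.28 and −0.02 in the alternative fits. Oa1-/- replicate 1 is also the array with the lowest median signal and the highest 18S ribosomal RNA control signal. Whether these bear on its Meg3 signal was not tested.

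Rian, a maternally expressed noncoding RNA of the same domain that hosts small nucleolar RNAs, was mixed on that array. Its brightest probe set 1452899_at measured 3083, 3865 and 3889 in WT, against 4419, 3666 and 3520 in Oa1-/-, highest on Oa1-/- replicate 1, with a log2 change of 0.10 (SE 0.12). Of its 4 tested probe sets 2 lay above and 2 below 0, from −0.23 to 0.29, and 2 were lowest on Oa1-/- replicate 1. Dlk1, the paternally expressed transmembrane relative of Notch ligands, gave 1702, 2170 and 2611 in WT, against 2288, 1534 and 1887 in Oa1-/-, a change of −0.18 (SE 0.18). Its dimmer probe set had a change of −0.06 (SE 0.32), and both overlapped between genotypes. Dio3, which encodes the deiodinase that inactivates thyroid hormone, had no probe set.

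**Figure D3:**
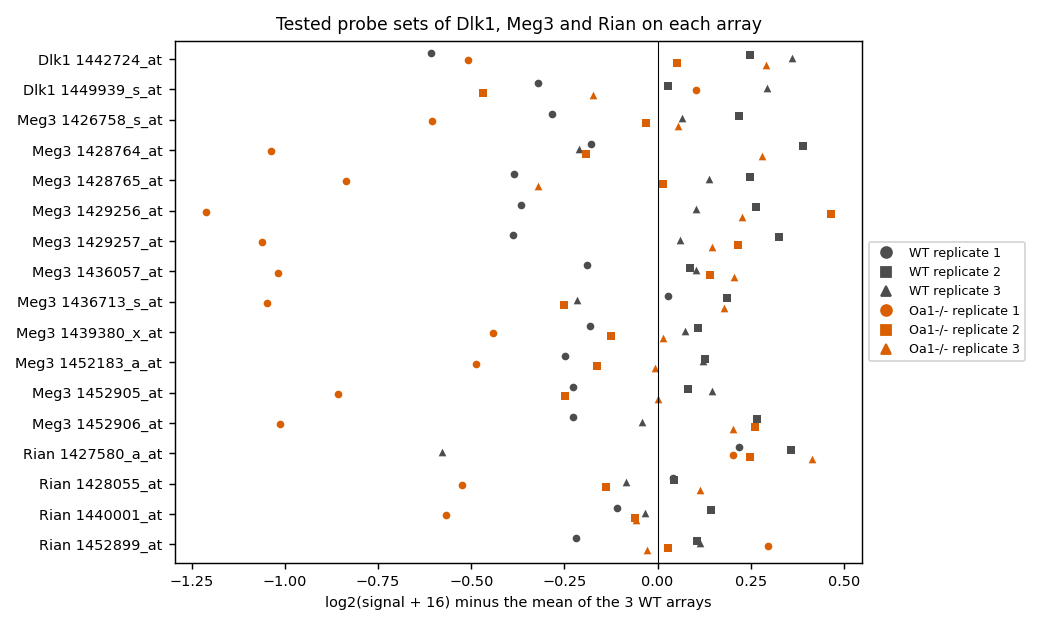
Signal of the tested probe sets of Dlk1, Meg3 and Rian on each array, as log2(signal + 16) minus the mean of the 3 WT arrays; grey is WT, orange Oa1-/-, and the marker shape gives the replicate. Oa1-/- replicate 1 (orange circle) is the lowest array in 11 of 11 Meg3 probe sets and the highest in Rian 1452899_at.

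The cluster around Peg10 and Sgce on chromosome 6 holds genes of both parental origins. Sgce, the paternally expressed epsilon-sarcoglycan gene, measured 1304, 1243 and 1290 in WT, against 1516, 1224 and 1270 in Oa1-/-, a log2 change of 0.06 (SE 0.10). Its second probe set, 1443518_at, gave 167, 144 and 74.9 in WT, against 45.0, 112 and 75.4 in Oa1-/-, a change of −0.63 (SE 0.35), so the probe sets of Sgce differed in sign. Ppp1r9a, which encodes the actin-binding neurabin of synapses, measured 2430, 2585 and 2007 in WT, against 2281, 2567 and 2915 in Oa1-/- on its brightest probe set, a change of 0.14 (SE 0.12). Its other tested probe sets had changes of 0.05 and −0.03, and a pair of dim ones was not tested.

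Other genes of this cluster were dim. Asb4, a subunit of ubiquitin ligases, gave 234, 133 and 94.1 in WT, against 133, 132 and 172 in Oa1-/- on its brighter probe set, a log2 change of 0.0018 (SE 0.30), and the other probe set had a change of −0.11 (SE 0.21). The retrotransposon-derived Peg10 measured 59.0, 34.7 and 15.9 in WT, against 28.5, 38.9 and 20.1 in Oa1-/-. The calcitonin receptor gene Calcr gave 25.5, 35.9 and 38.2 in WT, against 35.3, 21.9 and 31.6 in Oa1-/-. Peg10 and Calcr averaged below the highest background control and were not tested, and the groups overlapped for all 3 genes.

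Among the members outside these clusters, the growth regulators were bright and overlapped between genotypes. Plagl1, a paternally expressed zinc finger factor that controls other imprinted genes, measured 17480, 19179 and 18570 in WT, against 18136, 18620 and 19404 in Oa1-/- on 1426208_x_at, a log2 change of 0.02 (SE 0.07). Its dimmer probe sets had changes of −0.39 (SE 0.31) and 0.44 (SE 0.44), so only the bright one was steady from array to array. Mest, whose product has a hydrolase fold, gave 6494, 6578 and 6595 in WT, against 7320, 6419 and 6661 in Oa1-/-, a change of 0.05 (SE 0.07), with Oa1-/- replicate 1 above the rest. Grb10, an adaptor that restrains insulin receptor signalling and is maternal in most tissues, measured 11317, 11940 and 11909 in WT, against 13459, 13071 and 11800 in Oa1-/-. Its change was 0.12 (SE 0.08), with Oa1-/- replicates 1 and 2 above all WT arrays and replicate 3 among them. A pair of dim Grb10 probe sets had changes of 0.23 (SE 0.32) and −0.15 (SE 0.31).

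Inpp5f, which encodes an inositol polyphosphate phosphatase and has an imprinted variant in brain, separated the groups on its brightest probe set. It gave 1193, 1483 and 1355 in WT, against 1626, 1610 and 1484 in Oa1-/-, a log2 change of 0.23 (SE 0.10). The gap was narrow, between 1483 on WT replicate 2 and 1484 on Oa1-/- replicate 3. Its second tested probe set overlapped, with a change of 0.04 (SE 0.20), and the last was too dim for the test. Nap1l5, a paternally expressed relative of histone chaperones, measured 224, 283 and 284 in WT, against 342, 367 and 274 in Oa1-/-, with a change of 0.29 (SE 0.17). Oa1-/- replicates 1 and 2 were above all WT arrays and replicate 3 was among them.

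Igf2r, the maternally expressed receptor that removes Igf2 and carries mannose-6-phosphate-tagged enzymes to lysosomes, had probe sets of opposite sign. Probe set 1424111_at gave 958, 1395 and 1347 in WT, against 1176, 1609 and 1499 in Oa1-/-, a log2 change of 0.22 (SE 0.17). For 1424112_at the values were 1315, 1490 and 1085 in WT, against 1002, 1204 and 1130 in Oa1-/-, a change of −0.21 (SE 0.13). Both overlapped, and the probe set shared with Airn was dim, at means of 48.6 in WT and 28.1 in Oa1-/-, and not tested. Impact, a regulator of the translational stress kinase Gcn2, measured 1568, 1386 and 1328 in WT, against 1175, 1376 and 1405 in Oa1-/-, a change of −0.11 (SE 0.11), and −0.35 (SE 0.20) on its second tested probe set. Oa1-/- replicate 1 was the lowest array on both, and the last probe set of Impact was not tested.

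The last members also overlapped. Slc38a4, an amino acid transporter gene known from placenta and liver, gave 879, 776 and 577 in WT, against 681, 654 and 778 in Oa1-/-, a log2 change of −0.06 (SE 0.16), and −0.26 (SE 0.19) on its dimmer probe set. Rasgrf1, an activator of Ras in neurons, measured 90.7, 166 and 152 in WT, against 133, 143 and 112 in Oa1-/- on its brightest probe set, a change of −0.04 (SE 0.24). WT replicate 1 held the lowest value there. A second Rasgrf1 probe set had a change of 0.03 (SE 0.24), and the last was at background. Zrsr1, a splicing factor-like gene, had no probe set.

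**Figure D4:**
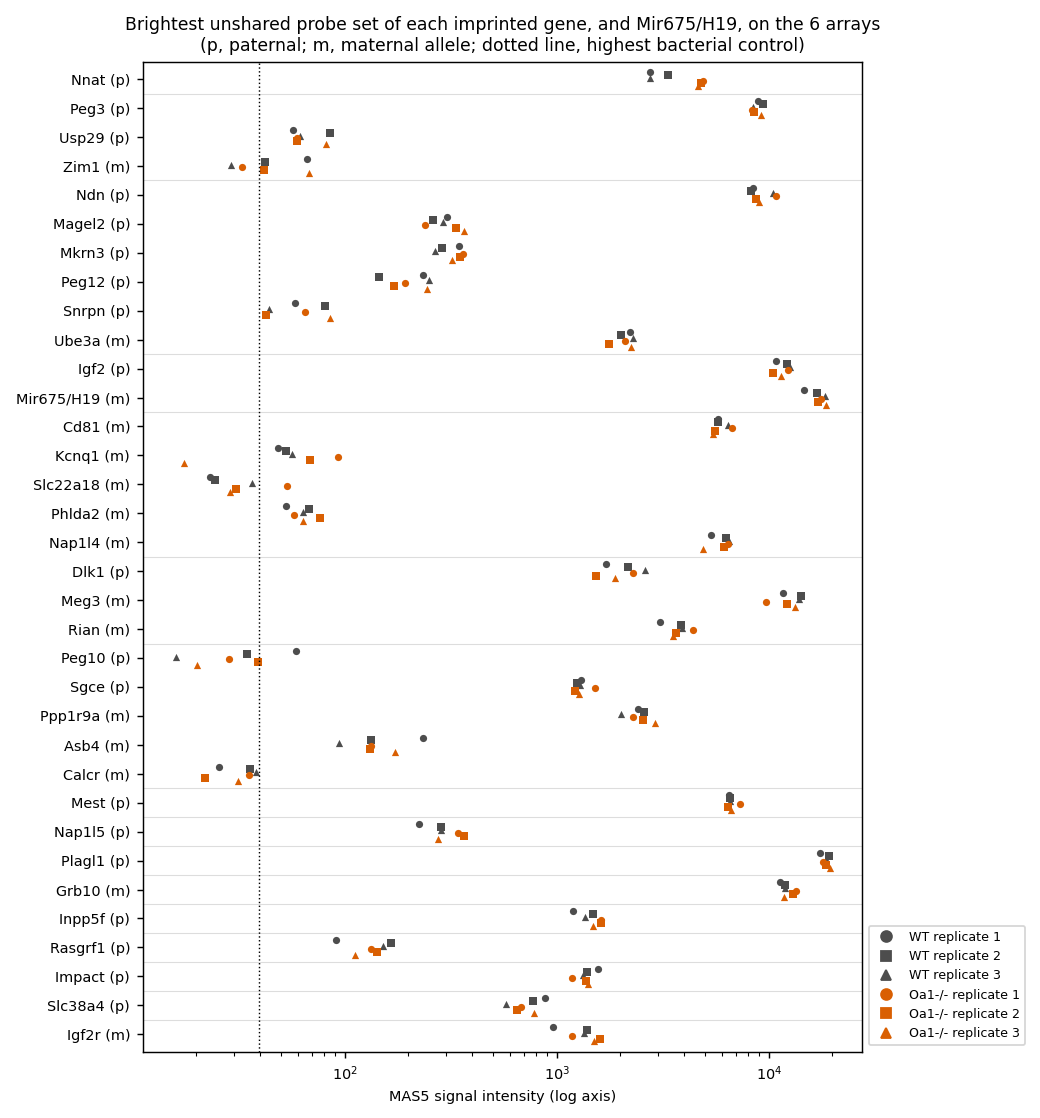
MAS5 signal (log axis) of the brightest unshared probe set of each imprinted gene, and of the Mir675/H19 probe set, by array, grouped by locus; p and m mark the paternal or maternal copy as the active one known from earlier work, and the dotted line is the highest bacterial control. Of the tested probe sets shown, those of Nnat and Inpp5f have groups that do not overlap (the brighter shared probe sets of Snurf and Snrpn are not shown), while Peg10, Calcr, Slc22a18, Kcnq1 and Zim1 have arrays to the left of the line.

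Grouped by the active parental copy, the members did not part. The copy is that known from earlier work, for some members (such as Ube3a and Inpp5f) only in certain cells or variants. It was not measured in these samples. On unshared probe sets, the 17 paternally expressed genes tested had a median log2 change of 0.02, with 9 above 0 and 8 below, and the 9 maternally expressed ones a median of 0.0018, with 5 above 0 and 4 below. The groups did not overlap for 2 of the 17 (Nnat and Inpp5f) and for 0 of the 9. Over all tested probe sets this held for 10.2%, so nothing is read from these counts. Snrpn and H19 are not in these counts, since their tested probe sets are shared. Of those, 4 of 5 for Snrpn, a paternally expressed gene, and 0 of 1 for H19, a maternally expressed one, had groups that did not overlap. From array to array, the brightest unshared probe set of a member varied by a median of 1.40-fold between its highest and lowest array, and over all genes by 1.35-fold. Of 17 members with more than 1 tested probe set, 8 had a single sign over all of them (Dlk1, Igf2, Impact, Inpp5f, Meg3, Ndn, Slc38a4 and Ube3a), and 9 had both signs.

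Further imprinted genes outside the list were spread in the same way. Of 51 such genes 42 had a probe set and 33 were tested, 17 of them above and 16 below a log2 change of 0, with a median of 0.01. In limma 1 of them had an unadjusted p below 0.05, Tspan32, and 0 passed the adjusted level. Over all genes tested 3.65% had an unadjusted p below 0.05. Tspan32, a tetraspanin gene next to the Kcnq1 domain, gave 277, 310 and 292 in WT, against 343, 350 and 480 in Oa1-/-, a change of 0.38 (SE 0.16). Cdkn1c, the maternally expressed cell cycle inhibitor of that domain, measured 7256, 8501 and 8860 in WT, against 7988, 6653 and 6204 in Oa1-/-, with overlapping groups and a change of −0.24 (SE 0.11). Osbpl5 and Tssc4, also from that region, had changes of −0.25 and 0.17, both without overlap of the groups. With Tspan32, the groups did not overlap for 3 of the 33, and over all tested probe sets for 10.2%. Nothing is read from these counts.

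The RNAs of proteins that write, protect and read imprints were measured as well. Of 20 listed genes 18 had a probe set and 15 were tested, 2 of them above and 13 below a log2 change of 0, with a median of −0.06. In limma 0 of the 15 had an unadjusted p below 0.05. Over all genes tested 50.9% were above 0 and 3.65% passed that level. Groups did not overlap for 1 of the 15, Ctcf, and over all tested probe sets for 10.2%. Nothing is read from these counts. Ctcf, the insulator protein that binds the unmethylated Igf2 and H19 control region, gave 3508, 3225 and 3455 in WT, against 3136, 3176 and 2887 in Oa1-/-, without overlap and with a change of −0.15 (SE 0.08). On their brightest probe sets, the methyltransferase gene Dnmt3a had a change of −0.09, the histone methyltransferase gene Ehmt2 −0.13 and Uhrf1, which recruits the maintenance methyltransferase, −0.08, each with overlapping groups.

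Genes of the insulin-like growth factor pathway, on which Igf2, Igf2r and Grb10 act, gave small values. Of 16 listed genes 15 had a probe set and 14 were tested, 4 of them above and 10 below a log2 change of 0, with a median of −0.01. In limma 0 of the 14 had an unadjusted p below 0.05, and 0 had groups that did not overlap. Over all genes tested 50.9% were above 0 and 3.65% passed that level, and 10.2% of all tested probe sets were without overlap. Nothing is read from these counts. The smallest unadjusted p values belonged to the RNA-binding protein genes Igf2bp3 and Igf2bp1, with changes of −0.14 and −0.08, and to the binding protein genes Igfbp3 and Igfbp4, with −0.12 and −0.08. Over these 3 lists, each of these named genes had an adjusted p of 0.985 in limma.

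Markers of the cells in the samples give the setting. Retinal progenitor markers (12 measured genes) summed to 66823 to 77317 in WT and 72116 to 76418 in Oa1-/-, and periocular mesenchyme markers (16 genes), from a tissue in which Igf2, H19, Dlk1 and Meg3 are commonly high, to 86929 to 104842 and 90361 to 96567. Of 15 tested mesenchyme genes 2 were above and 13 below a log2 change of 0, and 3 (Twist1, Fbln2 and the dim Osr1) were lower in Oa1-/- without overlap. Cartilage markers (8 genes) summed to 10895 to 13624 and 12131 to 13021. Of 6 tested cartilage genes 2 (Col2a1 and Matn4) were lower without overlap. Over all tested probe sets 5.3% were lower without overlap. Of 12 pigment epithelium genes Rpe65 and Best1 lay at background, and the sums were 33977 to 43175 and 35878 to 39569. Lens markers (9 genes, 106815 to 143270 and 131092 to 141901) and skeletal muscle markers (16 genes, 7580 to 21872 and 9618 to 22600) were present although the anterior segments had been removed. Among these tissues, the summed markers overlapped between genotypes in each, unlike those of young neurons, though single mesenchyme and cartilage genes did not overlap. The part of these tissues in the members' signals was not tested.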

How the data were processed

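Gene expression was measured in 3 WT and 3 Oa1-/- litter pools on Affymetrix arrays. The deposited values are MAS5 signal intensities on a linear scale, made by the authors per the submitters' processing notes. From the values, each array had been scaled to the same trimmed mean of 500.002. The labels do not state the MAS5 version, and detection calls were not used here. The labels name separate dams, so p-values measure the spread between litter pools, and the number of arrays limits the precision.

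Probe sets were named from the platform annotation, in which 34945 probe sets have 1 symbol, 932 have several and 9160 have none. Promoter windows came from RefSeq (GRCm38.p6) for 30 of 36 members. Log2(signal + 16) was computed, control probe sets were left out, and probe sets whose mean log2 value lay above the 40th percentile were kept (27029). R 4.3.3 and limma 3.58.1 (lmFit, eBayes with intensity trend) gave Oa1-/- minus WT, two-sided, with Benjamini-Hochberg adjustment over all kept probe sets. A log2 change understates that of dim probe sets. Code was tested on simulated data.

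The members, the lists and the marker lists were chosen with earlier results of these data known. Array values are given for each member's brightest unshared probe set, and for others above the bacterial controls whose groups do not overlap. From each other list, up to 4 genes with the smallest unadjusted p are named. Further array values, and Blcap, Zim3, Isl1, Stmn2, Gap43, Twist1, Fbln2, Osr1, Col2a1 and Matn4, were added after their values were seen. Alternatives were other pseudocounts (1, 64), filters (none, 70th percentile), quantile normalization, median centring, no trend, array weights, a replicate block, and leaving out arrays.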

Additional observations from a re-analysis of the deposited data

How the results depend on the processing

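The number of probe sets with an adjusted limma p below 0.05 over the whole array was 0 in the reported fit and 2 with median centring and 2 with array weights. It stayed at 0 in each of the other alternatives, the replicate block among them. Of the tested probe sets of imprinted genes, 7 passed an unadjusted p below 0.05. That count was 15 with array weights (8 higher, 7 lower), 11 without both WT replicate 3 and Oa1-/- replicate 1, and 5 to 12 with 1 array left out, the lowest without Oa1-/- replicate 1 and the highest without WT replicate 3 and also without Oa1-/- replicate 3. The cause was not tested. With the replicate number as a replicate block the count for imprinted genes was 9, 5 higher and 4 lower. Over all 27029 tested probe sets, 1111 passed the same level in the reported fit, 3090 with array weights and 888 with the replicate block. Without Oa1-/- replicate 1 that number was 1178, and without WT replicate 3 it was 1155. The counts for imprinted genes are given beside these as a description. The replicate numbers did not pair the samples. After the mean of each genotype was subtracted from every probe set, the deviations of same-numbered arrays correlated at −0.29, 0.15 and −0.25. The median log2 change over the 26 genes, 0.01 as reported, ran from −0.0075 (array weights) to 0.06 (without Oa1-/- replicate 2). For 32 named probe sets, 501 of 504 values under an alternative moved by less than the SD between replicates. The 3 others were Peg3 1417355_at with quantile normalization (−0.43) and median centring (−0.38) and Ndn 1415923_at with array weights (0.21). The sign changed in 40 of the 504, in 14 probe sets with small changes. With 3 arrays a genotype, and no check at the level of alleles, splice forms or cell types, the data limit what can be said about single members, and signals near the bacterial controls have no reliable order.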

Other observations

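The within-group spread of the probe sets that stood out differed widely. Nnat 1423506_a_at had a pooled SD of 0.116 on the log2 scale, and 23.7% of the tested probe sets had a smaller one. For Ndn 1415923_at the SD was 0.115, for Snurf and Snrpn 1421063_s_at it was 0.324 (79.5% smaller), and for Peg3 1417355_at it was 0.010, with 0.0074% smaller. The second tested Peg3 probe set 1417356_at had an SD of 0.589, and 95.2% of probe sets varied less. Probe sets of 1 gene thus lay at both ends of the range of spread in the same 6 RNA samples.

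The array that held the extreme value also differed between ways of counting the members. Oa1-/- replicate 1 was the lowest array for 26 of the 70 tested probe sets of imprinted genes and the highest for 17. Of those 26, 11 were probe sets of Meg3 alone. With the brightest unshared probe set per gene, it was the lowest for 4 of 26 and the highest for 9, and WT replicate 1 was the lowest for 9. Over all tested probe sets, Oa1-/- replicate 1 was the lowest in 27.6% and the highest in 17.6%.

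Dnmt3l, a germ-line cofactor of imprint setting, was not tested for its low signal. It gave 3.93, 6.14 and 7.60 in WT, against 24.8, 33.2 and 25.4 in Oa1-/-, without overlap, but all 6 values lay at or below 33.2, within the range of the highest bacterial controls or under it. Dppa3, of the same list, was also too dim for the test. It gave 41.0, 45.6 and 24.4 in WT, against 53.7, 49.8 and 61.0 in Oa1-/-, higher without overlap. Both genes were singled out after their values were seen.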
